A study of Mus musculus with 8 samples.

Results

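The methionine sulfoxide reductases are 4 genes, Msra, Msrb1, Msrb2 and Msrb3, of the 20660 genes that could be named on the arrays, and each was measured by 1 probe (A_55_P2064507, A_55_P1990919, A_51_P464911 and A_52_P121491 in this order). They were taken as a family, by matching the RefSeq accession of each probe to the gene, and the family was selected on measured values: the log2 ratio of Eif6+/- over wild-type (WT) muscle, which for Msrb2 lay above 0 in gastrocnemius and below 0 in tibialis anterior (TA). The ratios of these genes are therefore given as a description with no test, while their level in one muscle against the other, a quantity the choice did not use, was tested.

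By its own description the study compared skeletal muscle of 4 mice heterozygous for Eif6 (Eif6+/-) with muscle of 4 WT mice. Eif6 is a translation initiation factor that is also needed to make the large ribosomal subunit. The mice were 8 to 16 weeks old and were paired at random with an animal of matching age. The study's methods describe young males on a C57BL6 background, with WT littermates as controls, and the labels do not describe the Eif6 allele. RNA of both mice of a pair was labelled, Eif6+/- with Cy5 and WT with Cy3, and hybridized to the same 2-colour array, giving 4 arrays for gastrocnemius and 4 for TA. The study's methods mention Cy3 labelling only; the labels, which give both dyes for each array, were followed here, and the array files hold both channels. The labels number the pairs 1 to 4 in each muscle without saying that a number stands for the same mice in both. Cy5 carried Eif6+/- RNA on all 8 arrays, so that genotype and dye cannot be told apart within a muscle. All gastrocnemius arrays lay in row 1 and all TA arrays in row 2 of 1 slide, so that muscle and slide row cannot be told apart either.

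Methionine in proteins is readily oxidized to methionine sulfoxide, and the reductases turn it back into methionine, which makes the oxidation reversible. Msra reduces the S form of the sulfoxide and is found in the cytosol and in mitochondria. The Msrb enzymes reduce the R form, Msrb1 as a selenoprotein of the cytosol and nucleus, Msrb2 in mitochondria and Msrb3 in the endoplasmic reticulum. Thioredoxin and thioredoxin reductase return most of these enzymes to their active state. In muscle, methionines of actin and calmodulin are known to be oxidized and reduced in this way, and the MICAL enzymes oxidize those of actin.

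An array carried 62976 spots, and 59305 of these belonged to the 55681 probes that are not controls. Over those spots the median scanner signal was 60 to 74 for Cy5 and 46 to 61 for Cy3, and between 38.7% and 48.6% of probes stood well above local background in a given channel. The reductase probes were far brighter than the median spot. All 4 stood well above background in both channels on all 8 arrays, none was saturated, and none was marked as an outlier spot, so that all 4 members passed the filter on low signal in both muscles. The number of arrays, 4 per muscle, limits the precision of each value.

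Eif6 itself, the gene made heterozygous, was measured by 2 probes, and it is not known whether they lie in the stretch that the mutant allele lacks. For the brighter probe the log2 ratio was -0.97, -1.15, -0.89 and -1.06 in gastrocnemius pairs 1 to 4 and -1.22, -1.03, -0.95 and -0.80 in TA pairs 1 to 4. Eif6 RNA was thus lower in the Eif6+/- animal of each of the 8 pairs, by a mean of -1.02 ± 0.11 (SD, n = 4) in gastrocnemius and -0.999 ± 0.17 in TA, which in gastrocnemius is 0.494 times the WT level. The limma test with Benjamini-Hochberg adjustment over all probes kept gave adjusted p = 0.0241 and 0.0109. The second probe gave means of -1.13 and -1.12, with adjusted p = 0.0241 and 0.00294. In gastrocnemius the brighter probe no longer passed at 0.1 without pair 3 (adjusted p = 0.121) or without pair 4 (0.156), although its mean there was -1.06 and -1.004.

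Msra, the only family member that acts on the S form, had log2 ratios of 0.45, 0.07, 0.55 and 0.26 in gastrocnemius pairs 1 to 4, with a mean of 0.33 ± 0.21 (SD, n = 4), or 1.26 times the WT level. In TA its log2 ratios were 0.23, 0.14, 0.22 and 0.03, with a mean of 0.16 ± 0.093, or 1.11 times WT. The ratio thus lay above 0 in all 8 pairs, but pair 2 in gastrocnemius and pair 4 in TA lay close to 0, and the ranges of both muscles overlapped. With the scanner software's own signals the ratio of TA pair 4 was -0.13, so that the sign of that pair depended on the processing, and the TA mean was 0.079.

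Msrb1, the selenoprotein of the family, had log2 ratios of -0.24, 0.36, 0.24 and 0.33 in gastrocnemius, with a mean of 0.17 ± 0.28. In TA they were -0.07, 0.62, 0.31 and 0.20, with a mean of 0.27 ± 0.29. Pair 1 was the only pair below 0 in each muscle, and in each muscle the SD over pairs was larger than the mean for this enzyme of the cytosol and nucleus. The scanner software's signals gave -0.02 for TA pair 4 and lower means, 0.092 in gastrocnemius and 0.094 in TA.

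Msrb2, the mitochondrial enzyme, is the member with opposite signs. In gastrocnemius its log2 ratios were 0.78, 0.08, 0.54 and 0.34, with a mean of 0.43 ± 0.30, or 1.35 times the WT level. In TA they were -0.25, -0.03, -0.35 and -0.55, with a mean of -0.29 ± 0.22, or 0.816 times WT. All 4 gastrocnemius pairs lay above 0 and all 4 TA pairs below it, with no overlap, and pair 2 was nearest to 0 in each muscle. The separation is the property that drew attention to the gene, and the difference between the muscles was not tested. The ratios in the deposited table were 0.80, 0.09, 0.52 and 0.35 for gastrocnemius and -0.27, -0.03, -0.34 and -0.53 for TA, and those of the scanner software had the same sign in each pair.

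Msrb3, the enzyme of the endoplasmic reticulum, had log2 ratios of -0.05, -0.43, -0.11 and -0.15 in gastrocnemius, with a mean of -0.19 ± 0.17. In TA they were -0.10, 0.27, 0.17 and 0.22, with a mean of 0.14 ± 0.17. The gastrocnemius ratio was below 0 in 4 of 4 pairs and farthest from 0 in pair 2, while the TA ratio was above 0 in 3 of 4 pairs. The mean of TA was within 1 SD of 0. The mean was thus lower in gastrocnemius than in TA, the opposite order to that of Msrb2 and Msra, but pair 1 of TA lay inside the range of gastrocnemius.

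**Figure D1:**
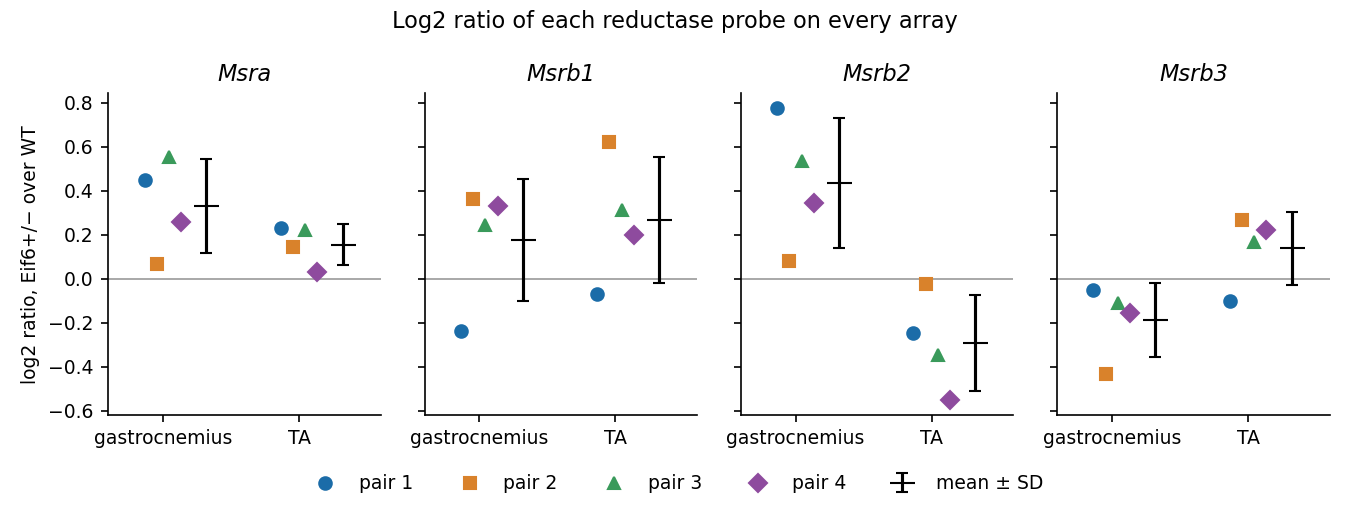
Each point is the log2 ratio of Eif6+/- over WT for 1 reductase probe on 1 array (vertical axis, log2 units), for gastrocnemius and tibialis anterior (TA); color and shape give the pair number within a muscle, and the bars give mean ± SD over 4 pairs. For Msrb2 the 4 gastrocnemius pairs lie between 0.08 and 0.78 and the 4 TA pairs between -0.55 and -0.03, whereas the muscles overlap for the other members.

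Across all genes kept in gastrocnemius, the log2 ratio had a median of 0.02, and 1939 of 12609 genes (15.4%) passed the limma test at an adjusted p under 0.1, 1242 (9.85%) higher and 697 (5.53%) lower in Eif6+/- mice. For TA the median was likewise 0.02, and 2014 of 12381 genes (16.3%) passed, 1112 (8.98%) higher and 902 (7.29%) lower. Since these ratios served to choose the family, no count of reductases is set beside these shares.

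The ratio of Msrb2 can be taken apart into its channels, the normalized log2 intensity of each genotype, which can be compared between samples for 1 probe but not between probes. In gastrocnemius the WT level of Msrb2 was 10.21, 10.37, 10.25 and 10.69 in pairs 1 to 4, and the Eif6+/- level was 10.99, 10.45, 10.79 and 11.04. In TA the WT level was 11.37, 11.26, 11.21 and 11.76, and the Eif6+/- level was 11.12, 11.24, 10.87 and 11.20. From lowest to highest the means were WT gastrocnemius (10.38 ± 0.22), Eif6+/- gastrocnemius (10.82 ± 0.27), Eif6+/- TA (11.11 ± 0.17) and WT TA (11.40 ± 0.25). Neighbours in this order overlapped in each case, but WT gastrocnemius and WT TA, at the ends of the order, did not. The widest gap between group means was thus that between the muscles of WT mice, and the means of both Eif6+/- groups lay between those. The scanner signals before any normalization had the same form: WT (Cy3) signal was 767 to 988.5 in gastrocnemius and 1452 to 3129 in TA, and Eif6+/- (Cy5) signal was 1875 to 3314 in gastrocnemius and 3020 to 3207 in TA. The dyes have different gains, so that raw Cy3 and Cy5 signals are not compared with each other.

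For Msra the order from the lowest mean was WT gastrocnemius (9.86 ± 0.22), Eif6+/- gastrocnemius (10.20 ± 0.21), WT TA (10.34 ± 0.19) and Eif6+/- TA (10.37 to 10.60), and again each neighbour overlapped the next. Its WT samples spanned 9.57 to 10.11 in gastrocnemius and 10.15 to 10.58 in TA, without overlap. WT gastrocnemius was thus the lowest group by mean for both Msra and Msrb2, and it was so for Msrb1 as well. For Msrb1 the order was WT gastrocnemius (14.08 ± 0.20), WT TA (14.12 ± 0.22), Eif6+/- gastrocnemius (14.25 ± 0.16) and Eif6+/- TA (14.39 ± 0.23). For Msrb3 it was WT TA (9.87 ± 0.21), Eif6+/- gastrocnemius (9.98 ± 0.11), Eif6+/- TA (10.01 ± 0.11) and WT gastrocnemius (10.16 ± 0.25). All 4 groups of Msrb1 overlapped one another, as did all 4 groups of Msrb3.

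**Figure D2:**
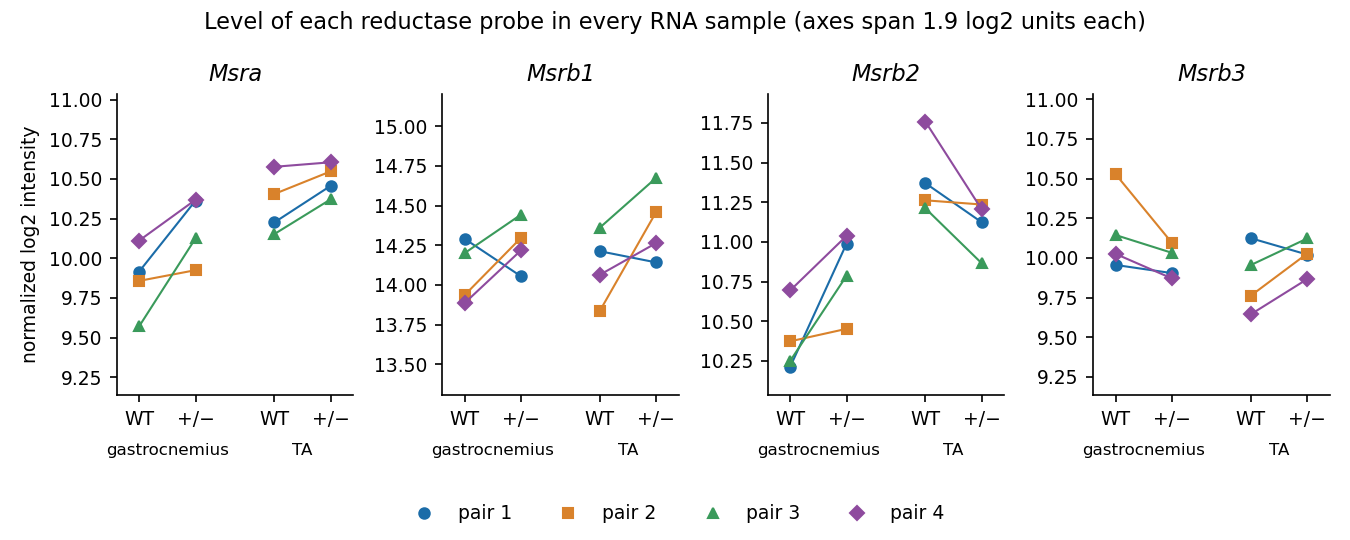
Normalized log2 intensity of each reductase probe (vertical axis) in every RNA sample, WT and Eif6+/- (+/−) of gastrocnemius and tibialis anterior (TA); a line joins the samples of 1 pair on 1 array, and each axis spans the same number of log2 units. For Msrb2 the line runs upward in the 4 gastrocnemius pairs, whose WT samples lie between 10.21 and 10.69, and downward in the 4 TA pairs, whose WT samples lie between 11.21 and 11.76.

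Whether the reductases differ in level between the muscles was asked with the mean of both channels of each array, 4 gastrocnemius arrays against 4 TA arrays. By the study's count of 4 mice per genotype, both muscles came from the same animals. The test treated the arrays as separate samples, since the pair numbers are not known to match. With the pair number as a block, Msrb2 and Msra also passed (limma adjusted p = 0.00254 and 0.0125). Msrb2 and Msra were lower in gastrocnemius than in TA by the mean of both channels, and Msrb1 and Msrb3 did not pass the test. By each channel alone Msrb2 and Msra were also lower, but they passed with the WT channel and not with the Eif6+/- channel. A channel alone holds part of the ratios that served to choose the family, so that these calls are no further test. The level of Msrb2 was 10.60, 10.41, 10.52 and 10.87 in gastrocnemius and 11.25, 11.25, 11.04 and 11.48 in TA, so that the highest gastrocnemius array lay below the lowest TA array. The difference, gastrocnemius minus TA, was -0.65 (SE 0.11, 95% interval -0.90 to -0.41, limma adjusted p = 0.00369), which is 1.57 times as much Msrb2 RNA signal in TA. The level of Msra was 10.14, 9.89, 9.85 and 10.24 in gastrocnemius and 10.34, 10.48, 10.26 and 10.59 in TA, again without overlap. Its difference was -0.39 (SE 0.10, 95% interval -0.61 to -0.16, adjusted p = 0.0238), or 1.31 times as much in TA. For Msrb1 the difference was -0.09, with an interval of -0.29 to 0.12 and adjusted p = 0.544. For Msrb3 it was 0.13, with an interval of -0.09 to 0.35 and adjusted p = 0.381. These intervals leave room for a difference of either sign in Msrb1 and Msrb3.

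In this comparison 4077 of 12200 genes (33.4%) passed, 1601 (13.1%) higher and 2476 (20.3%) lower in gastrocnemius, around a median of -0.03. The 2 of 4 reductases that passed were both lower in gastrocnemius, in a comparison where a difference of this kind is common. For each genotype alone, gastrocnemius minus TA was -1.02 in WT and -0.29 in Eif6+/- mice for Msrb2, and -0.48 in WT and -0.30 in Eif6+/- mice for Msra. Each of these holds part of the ratios that served to choose the family, so that they are given as a description. The limma calls by channel belong to that description. With the Eif6+/- channel alone neither Msrb2 (adjusted p = 0.191) nor Msra (adjusted p = 0.102) passed. Both passed with the WT channel alone (adjusted p = 0.00452 and 0.0440).

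**Figure D3:**
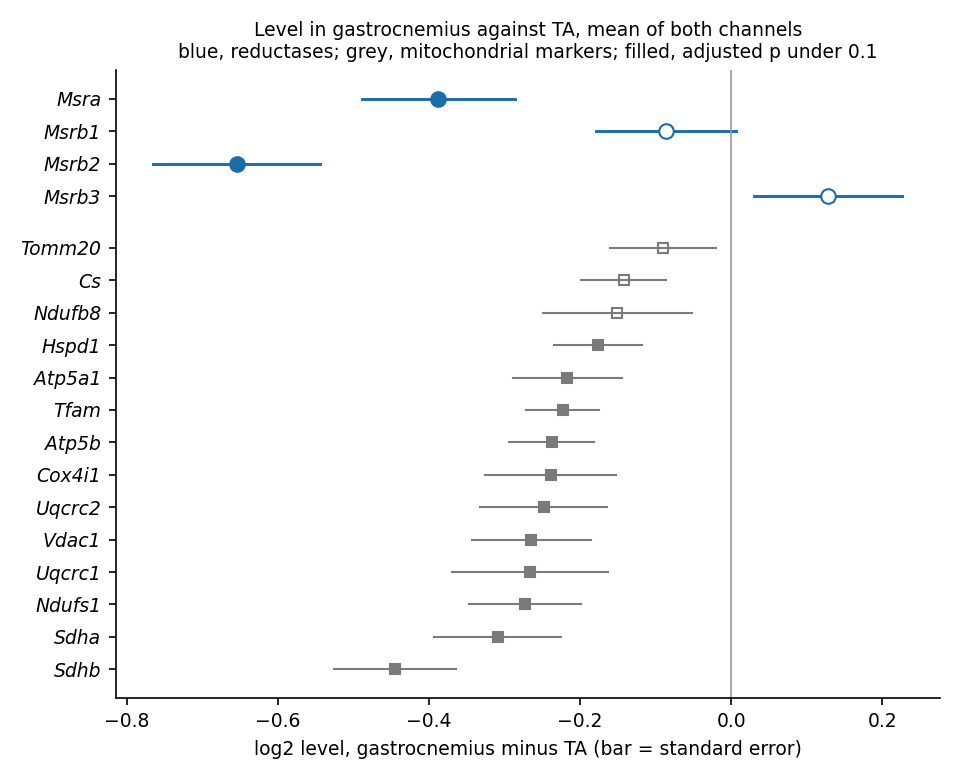
Difference in log2 level between gastrocnemius and tibialis anterior (TA), mean of both channels, for the reductases (blue) and the mitochondrial marker list (grey); bars give the standard error over 4 arrays per muscle, and filled symbols passed at an adjusted p under 0.1. Msrb2 (-0.65) and Msra (-0.39) passed, as did 11 of the 14 mitochondrial markers, all to the left of 0.

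Msrb2 works in mitochondria, as does part of Msra, and RNA of other genes for mitochondrial proteins differed along with theirs. In whole muscle, fewer cells of a type and less RNA per cell cannot be told apart. Of 14 nuclear genes for mitochondrial proteins (brightest probe Atp5b), 11 were lower in gastrocnemius than in TA, beside 20.3% of all genes, with a median difference of -0.24 and Sdhb, a subunit of respiratory complex II, at -0.45 (adjusted p = 0.00505). The summed log2 level of the 14 genes was 18.45, 18.76, 18.56 and 18.84 in WT gastrocnemius and 19.22, 18.95, 19.07 and 19.17 in Eif6+/- gastrocnemius. In TA it was 19.00, 19.07, 18.97 and 19.23 in WT and 19.20, 19.25, 19.03 and 19.21 in Eif6+/- mice. WT gastrocnemius was thus the lowest group by mean for the mitochondrial sum, as it was for Msrb2 and Msra. The same group was also lowest for Msrb1 (14.08), an enzyme of the cytosol and nucleus, and highest for Msrb3 (10.16). The log2 ratio of the sum was 0.77, 0.19, 0.51 and 0.33 in gastrocnemius pairs 1 to 4, which rank in the same order as the Msrb2 ratios there. The Msra ratios ranked otherwise, with pair 3 (0.55) above pair 1 (0.45). In TA the ratio of the sum was 0.20, 0.18, 0.06 and -0.02, so that 3 of 4 pairs lay above 0 while Msrb2 lay below 0 in all 4. By the limma test 8 of the 14 genes were higher and 0 lower in Eif6+/- gastrocnemius, where 9.85% of all genes were higher and 5.53% lower, but without pair 3 or pair 4 limma called no gene of any list there. In Eif6+/- TA 3 were higher (Atp5b, Cs, Tomm20) and 2 lower (Uqcrc1, Cox4i1), where 8.98% of all genes were higher and 7.29% lower. The part of mitochondrial content in the Msrb2 and Msra values was not tested.

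Slow fibres are rich in mitochondria, and their genes differed between the muscles and between the animals of a pair. Of 8 slow-fibre genes, 6 were higher in gastrocnemius, beside 13.1% of all genes, with a median difference of 2.15, which is the opposite direction to that of Msrb2. Myl3, which had the brightest probe of the list, was not among the 6. Of 10 fast-fibre genes 2 were higher (Myh2 at 1.21, Actn3) and 1 lower (Myh1 at -0.99, adjusted p = 0.00205). Of 8 skeletal muscle genes 2 were higher (Des, Actn3) and 1 lower (Mb, myoglobin, at -0.79, adjusted p = 0.0166). Among all genes 13.1% were higher and 20.3% lower. Myh1 and Mb had the direction of Msrb2 and Msra, while 8 of the 10 fast-fibre and 6 of the 8 skeletal muscle genes lay above 0. The summed slow-fibre ratio was 3.19, -1.09, 0.18 and -0.18 in gastrocnemius pairs 1 to 4 and -0.04, -0.52, -0.07 and -1.43 in TA. Gastrocnemius pair 1, which had the highest Msrb2 ratio, and TA pair 4, which had the lowest, thus also stood at the ends for slow-fibre RNA. The pairs between them did not keep the Msrb2 order. Gastrocnemius pair 2 stood at -1.09 for slow-fibre RNA with Msrb2 at 0.08, and TA pair 3 at -0.07 with Msrb2 at -0.35. In pair 1 the summed level was 17.06 in the Eif6+/- and 13.87 in the WT gastrocnemius. No slow-fibre gene passed the limma test in gastrocnemius, where 0 of 8 also had an unadjusted p under 0.05, and 4 of 8 were lower in Eif6+/- TA, beside 7.29% of all genes. Without pair 1 the mean Msrb2 ratio in gastrocnemius was 0.32. The part of fibre composition in the reductase values was not tested.

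**Figure D4:**
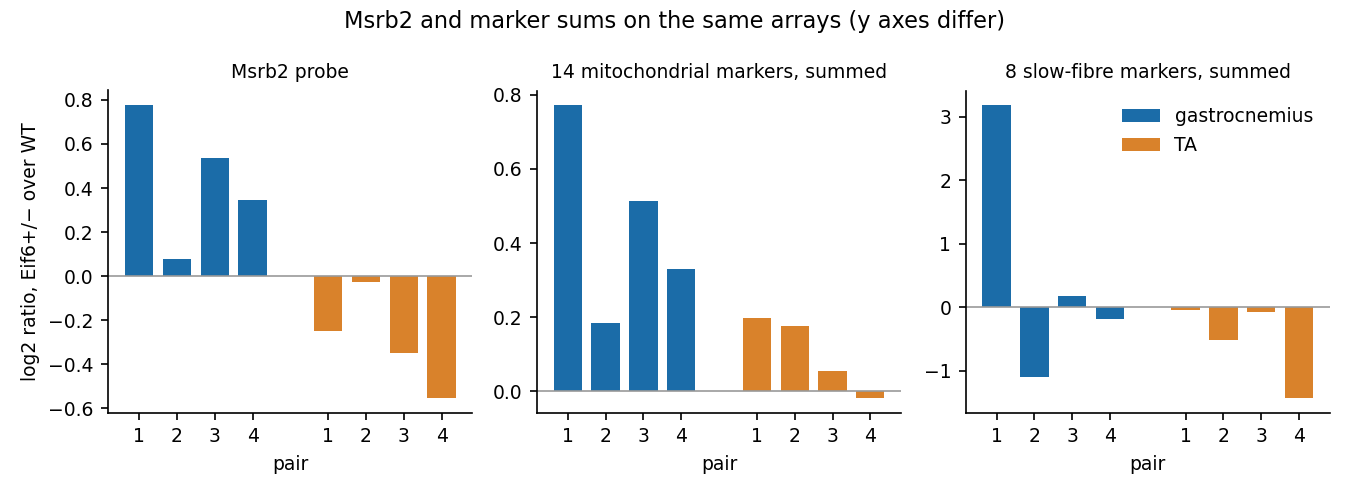
Log2 ratio of Eif6+/- over WT (vertical axes, which differ in scale) on each array for the Msrb2 probe, for the sum of 14 mitochondrial markers and for the sum of 8 slow-fibre markers; bars are single pairs, blue for gastrocnemius and orange for tibialis anterior (TA). The gastrocnemius bars of Msrb2 and of the mitochondrial sum rank alike, and gastrocnemius pair 1 stands apart for slow-fibre RNA at 3.19.

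The samples were skeletal muscle by their markers: all 8 skeletal muscle genes (brightest probe Acta1) and all 10 fast-fibre genes (brightest probe Pvalb) stood well above background in both channels of all 8 arrays. In Eif6+/- muscle, 4 of the 8 skeletal muscle genes were lower and 0 higher in gastrocnemius, and 3 were lower and 1 higher in TA, with the shares of all genes as given for the mitochondrial list. Of the fast-fibre genes, 1 was higher and 2 lower in gastrocnemius and 2 were higher and 2 lower in TA. RNA of other cell types was present on all arrays beside that of the reductases, and no marker lay below background on all 8. The brightest probes were those of Fabp4 for fat, Col1a2 for fibroblasts, Tagln for smooth muscle, Csf1r for macrophages, Pmp22 for nerve, Kdr for endothelium and Hba-a2 for blood, which does not rank them by abundance, since probes differ in brightness for equal RNA. Between the muscles, 4 of 5 fat genes tested, 4 of 6 fibroblast genes, 4 of 5 smooth muscle genes, 3 of 5 macrophage genes and 4 of 5 nerve genes were higher in gastrocnemius, beside 13.1% of all genes. Of the endothelial genes 1 of 5 (Cdh5) was lower, about the share of all genes that were lower (20.3%). Between genotypes, 5 of 6 blood genes tested, 3 of 5 smooth muscle genes, 2 of 5 endothelial genes and 2 of 5 nerve genes were lower and 2 of 5 fat genes were higher in Eif6+/- TA, beside 7.29% and 8.98% of all genes. The blood gene that did not pass there was Hba-a2. In Eif6+/- gastrocnemius, 2 of 5 fat genes, 1 of 5 macrophage genes and 1 of 5 smooth muscle genes were lower, beside 5.53% of all genes. The mean log2 ratio of the summed blood genes, in which Hba-a2 had the brightest probe, was -0.43 ± 0.43 in TA and -0.05 ± 0.31 in gastrocnemius, where 4 of 5 blood genes tested lay below 0, with a median of -0.27 and 3 at an unadjusted p under 0.05. For the fat genes it was 0.12 ± 0.38 in TA and -0.61 ± 0.55 in gastrocnemius, for the macrophage genes -0.09 ± 0.41 and -0.63 ± 0.63, and for the smooth muscle genes -0.36 ± 0.23 and -0.23 ± 0.16. For the fibroblast genes it was 0.34 ± 1.27 in TA and -0.24 ± 0.76 in gastrocnemius, with 2 and 3 of 4 pairs above 0. Pair 3 stood apart in each muscle for fibroblast genes, at 2.13 in TA and -1.36 in gastrocnemius. The sum was below 0 in 4 of 4 pairs for fat and macrophage genes in gastrocnemius, for blood genes in TA and for smooth muscle genes in both. The sums of nerve and endothelial genes were also below 0 in all 4 TA pairs. The part of these cells in the reductase values was not tested.

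Correlations between the reductases use the log2 ratios that served to choose the family and are given as a description. Over the 8 ratios, which come from both muscles, the Pearson correlation was 0.78 between Msra and Msrb2. It lay between -0.45 and 0.21 for the other pairs of members. Among 12199 other genes kept in both muscles, those whose ratios were most like those of Msrb2 were Grb14, an adaptor of the insulin receptor (r = 0.992), Lrpprc, which stabilizes mitochondrial messenger RNA (r = 0.985), and Zfp426 (r = 0.984). The mean ratios of Lrpprc were 0.72 in gastrocnemius and 0.32 in TA, so that likeness in pattern did not include the change of sign seen for Msrb2, whereas Grb14 had 0.90 and -0.16. For Msra the most alike were Timm9, a chaperone of mitochondrial protein import (r = 0.974), Uqcrb, a subunit of respiratory complex III (r = 0.966), and Pcyt2, an enzyme of phospholipid synthesis (r = 0.959). For Msrb1 they included Nrsn1 (r = 0.948) and Ptges3l (r = 0.911). For Msrb3 they were Ywhag, a 14-3-3 protein (r = 0.972), Rab1b, a GTPase of early secretory traffic (r = 0.955), and Grik5 (r = 0.945). These are the highest of 12199 values over 8 arrays each and are given as a description.

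The reductases work within a pathway of electron donors, selenium enzymes and methionine metabolism, and 83 genes of it in 6 lists were examined. In gastrocnemius 11 of 79 tested were called, 8 higher and 3 lower in Eif6+/- muscle, and in TA 12 of 78, 5 higher and 7 lower, shares of 13.9% and 15.4% beside 15.4% and 16.3% of all genes. The pathway as listed was thus called about as often as other genes in each muscle, and by its brightest probe each gene named from it had its direction in 4 of 4 pairs except Glrx2 in gastrocnemius and Gpx3 in TA, with 3 of 4. Both counts include Prdx6, whose probes disagreed. The medians over the 79 and 78 genes tested were -0.03 and 0.01, beside 0.02 for all genes. Without gastrocnemius pair 3 or pair 4, limma called 0 genes of 12609 (2424 and 2649 had an unadjusted p under 0.05, and SAM, a permutation method, called 3212 with all 4 pairs). Without TA pair 1 or pair 2 it called 0 of the pathway genes, of which 15 and 20 had an unadjusted p under 0.05, and SAM called 18 with all 4 pairs.

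The list of 14 thioredoxin and glutaredoxin genes includes the thioredoxins that supply the reductases with electrons, but also genes with other roles, such as Srxn1. In Eif6+/- gastrocnemius 3 of the 14 were higher, beside 9.85% of all genes. These were Glrx2, a mitochondrial glutaredoxin (0.38, adjusted p = 0.0817), Srxn1, which repairs peroxiredoxins (0.37, adjusted p = 0.0794), and Txnrd3, a thioredoxin and glutathione reductase (0.31, adjusted p = 0.0863). In TA Txnrd3 was higher (0.40, adjusted p = 0.0317) and Glrx lower (-0.28, adjusted p = 0.0788), beside 8.98% of all genes higher and 7.29% lower. The ratio of Txnrd3 was above 0 in all 8 pairs. The 2 other Glrx2 probes kept gave 0.18 each and did not pass. The thioredoxins that serve the reductases in cytosol and mitochondria did not pass in either muscle, with 0.03 in gastrocnemius and 0.13 in TA for Txn1 and 0.07 and -0.18 for Txn2. The thioredoxin reductases, Txnrd3 among them, are selenoproteins too but were counted in the list above, and Sephs2 in that for making selenocysteine. Of 15 further selenoproteins, which share with Msrb1 the need for selenocysteine, 1 was lower in gastrocnemius, beside 5.53% of all genes. This was Gpx3, the secreted glutathione peroxidase (-0.94, adjusted p = 0.0512). In TA Gpx3 (-0.62, adjusted p = 0.0709) and Gpx4 (-0.38, adjusted p = 0.0330) were lower and Selenot was higher (0.41, adjusted p = 0.0318), although a second Selenot probe gave 0.04. Of 8 genes for making and inserting selenocysteine, limma called 0 in each muscle, with 2 at an unadjusted p under 0.05 and 1 called by SAM in each.

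Around methionine itself, 3 of 16 genes of its cycle and salvage were higher in gastrocnemius, beside 9.85% of all genes, namely Mtrr, which keeps methionine synthase active (0.26, adjusted p = 0.0919), Apip, a salvage enzyme (0.26, adjusted p = 0.0978, and 0.28 with adjusted p = 0.102 by its other probe), and Mat2b, a subunit of the enzyme that makes S-adenosylmethionine (0.25, adjusted p = 0.0908). The salvage enzyme Adi1 was lower (-0.32, adjusted p = 0.0968), beside 5.53% of all genes lower. In TA, beside 8.98% of all genes higher and 7.29% lower, 1 of 15 was higher (Enoph1, 0.23, adjusted p = 0.0714) and 2 were lower (Gnmt, -0.27, adjusted p = 0.0715, and Ahcyl1, -0.27, adjusted p = 0.0622, its other probe at -0.20 not passing). Among 12 MICAL genes and known targets of methionine oxidation, Mical2 was lower in gastrocnemius (-0.43, adjusted p = 0.0527), but its other probe, too dim to be kept, gave 0.04. In TA Mical3 was lower (-0.26, adjusted p = 0.0846) and Calm3, a calmodulin gene, higher (0.34, adjusted p = 0.0516). The size of several of these ratios depended on the processing: with the scanner software's signals Mtrr was 0.74 and Mical2 -0.72 in gastrocnemius, and Mical3 was -0.99 and Gnmt -0.57 in TA, the last no longer passing. Of 14 antioxidant enzymes, Sod2 (0.46, adjusted p = 0.0357) and Prdx6 (0.48, adjusted p = 0.0360) were higher in gastrocnemius. In TA Prdx6 was higher (0.24, adjusted p = 0.0918) and Prdx5 lower (-0.32, adjusted p = 0.0363). The Prdx6 probes disagreed: 2 others gave -0.14 and -0.09 in gastrocnemius and -0.40 and -0.37 in TA, the latter with adjusted p = 0.0263 and 0.0364, so that no direction can be given for this gene.

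**Figure D5:**
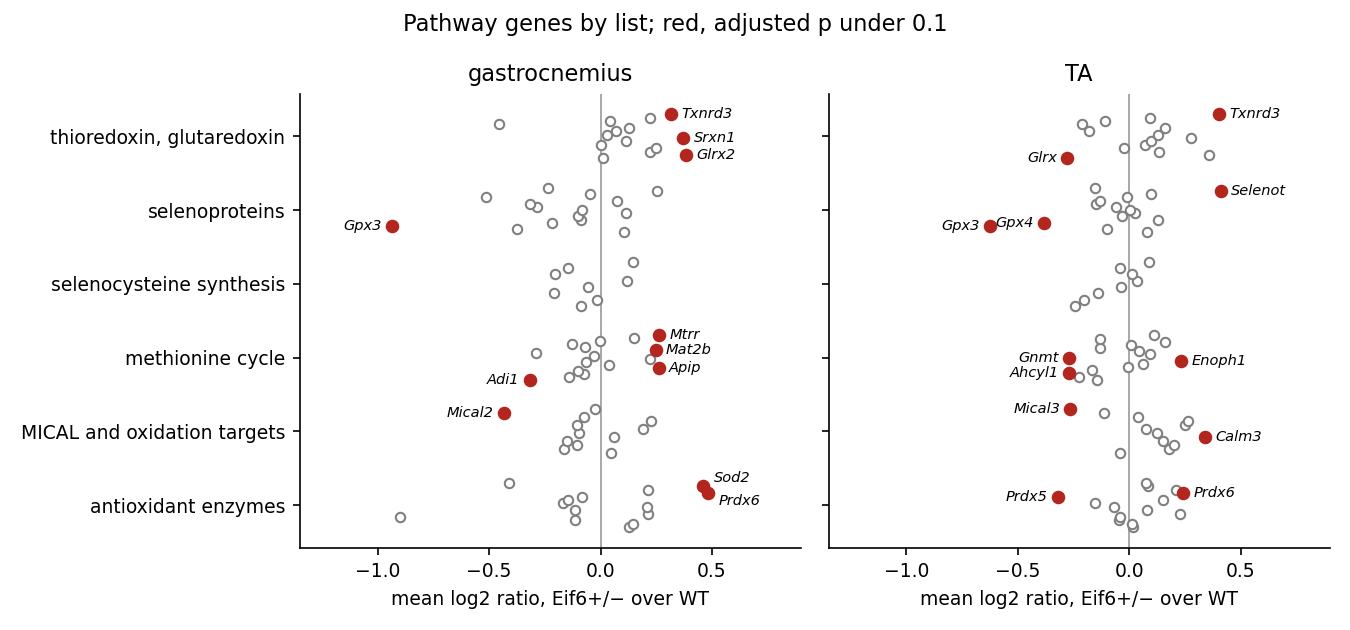
Mean log2 ratio of Eif6+/- over WT (horizontal axis) for the tested genes of the 6 pathway lists, in gastrocnemius and tibialis anterior (TA), with 1 point per gene at its brightest probe; red points passed at an adjusted p under 0.1 and are named. In gastrocnemius 11 of 79 genes passed and in TA 12 of 78, and most points lie near 0 in each list.

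In the comparison of muscles, where Msrb2 and Msra were lower in gastrocnemius, 34 of 78 pathway genes passed, 12 higher and 22 lower in gastrocnemius (43.6%, beside 33.4% of all genes). Of the thioredoxin and glutaredoxin genes 6 of 14 were lower and 8 did not pass, beside 20.3% of all genes lower; those lower included Glrx (-0.44, adjusted p = 0.00349) and Txn2 (-0.35, adjusted p = 0.00875), the thioredoxin of mitochondria, where Msrb2 works. The calls of each other list lay on both sides, beside 13.1% of all genes higher and 20.3% lower. Selenoproteins had 4 of 15 higher, with Gpx1 at 0.48 and Selenop at 0.36, and 2 lower, with Selenoo at -0.26 and Selenoi at -0.15. For selenocysteine synthesis Secisbp2 was higher (0.22, but -0.10 by its other probe), and Pstk (-0.35) and Sephs2 (-0.22) were lower. In methionine metabolism Adi1 was higher (0.40, its other probe at 0.21 not passing) and 3 genes were lower, with Mat2b at -0.24 and Mtrr at -0.22. Among oxidation targets and MICAL genes, 3 were higher, with Actb at 0.49 and Mical1 at 0.26, and 3 lower by their brightest probe, with Camk2g at -0.34. The 2 probes of Camk2b, counted among those lower, both passed with opposite signs (-0.35, adjusted p = 0.0403, and 0.20, adjusted p = 0.0931), so that no direction can be given for it. Antioxidant enzymes had 3 of 14 higher, with Sod3 at 0.97 and Hmox1 at 0.64 (0.29 by its other probe), and 6 lower, with Cat at -0.48 (-0.30 by its other probe) and the mitochondrial Sod2 at -0.45. With 1 array left out in turn, Selenoi passed in 1, Selenoo in 2, Selenop in 3, Hmox1 in 6 and Mat2b and Camk2b in 7 of 8 fits, and the others named passed in all 8. With the scanner software's signals Selenop (0.17), Adi1 (0.23) and Actb (0.19) no longer passed. With the Eif6+/- channel alone 10 of the 20 named did not pass, Txn2, Selenop, Selenoo, Selenoi, Mat2b, Mtrr, Actb, Mical1, Camk2b and Hmox1, nor did Msrb2 and Msra. With the WT channel alone 5 of the 20 did not pass, Selenop, Selenoo, Selenoi, Sephs2 and Hmox1, while Msrb2 and Msra passed.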

How the data were processed

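RNA of Eif6+/- (Cy5) and WT (Cy3) mouse muscle was measured on 8 Agilent arrays, 4 pairs for gastrocnemius and 4 for tibialis anterior. Per the file headers, the scanner files give median pixel intensity of spot and local background; the mean spot signal was absent. Their processed signals (intensity) were background-subtracted and dye-normalized, and their log10 ratios were made from them, per the file headers. The deposited table holds log2 ratios: its scale, direction (Cy5 over Cy3) and centring were known by comparison with the scanner values, since each column correlated at 0.999963 to 0.999996 with loess-normalized ratios without background correction and had a median of -0.00441 to 0.00375. Here, intensities were corrected by normexp (offset 50), normalized by loess within arrays, with control spots at weight 0, and by quantiles over all 16 channels, control spots included and left out afterwards, with limma 3.58.1 in R 4.3.3. Outlier spots (233 to 318 per array) were left out and spots of a probe averaged. Accessions matched 27235 of 55681 probes to 20660 genes. A probe was kept for a muscle where each of its 4 arrays had Cy5 or Cy3 signal well above background (23802 and 23391 probes, 22765 in both), and a gene was counted by its brightest probe. Ratios were tested against 0 and levels (mean of both channels) between muscles by limma, with Benjamini-Hochberg adjustment over the probes kept and a threshold of 0.1. The steps were tested on simulated data. Figures were drawn with matplotlib 3.10.9 in Python 3.11.15.

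The members and gene lists (6 pathway, 11 marker) were chosen with earlier results of these data known. Named genes were the reductases, Eif6, the genes past the threshold in each pathway list, at most 4 per muscle and direction for ratios and 2 per direction for levels, up to 3 genes most alike to each reductase by Pearson correlation, and the marker with the brightest probe of each list. Genes beyond this rule (Txn1, Txn2, Sdhb, Cdh5, Cs, Tomm20, Uqcrc1, Cox4i1) were named after their values were seen. The marker lists share genes with muscle itself: mitochondrial and fibre genes are expressed in all muscle fibres, Acta1 is also in a pathway list, and Myh4 and Actn3 are in both muscle lists. Cd68 had no named probe. Alternatives were loess alone, quantiles alone, Aquantile or median-level scaling, offset 0, no background correction, processed signals scaled to the 75th percentile for levels, deposited ratios, no or a stricter filter, SAM, an ordinary test per probe, a threshold of 0.05, medians over or counts of a gene's probes, each array left out, the pair number as a block, and each channel alone.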

Additional observations from a re-analysis of the deposited data

Results flagged for a closer look

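The log2 ratio of Msrb2 had a mean of 0.43 in gastrocnemius and -0.29 in tibialis anterior, with all 4 pairs of one muscle above 0 and all 4 of the other below it; the difference was not tested. Of 99 groups of 4 samples examined, 5 held a sample far from the others, and chance gives about 1 in 20. The mean log2 level of Msrb1 in tibialis anterior pair 3 was 14.52, with the others at 14.15 to 14.18. The Calm3 log2 ratio in tibialis anterior pair 3 was 0.073, with the others at 0.41 to 0.46. The Prdx5 log2 ratio in tibialis anterior pair 2 was -0.39, with the others at -0.30 to -0.28. The mean log2 level of Mat2b in tibialis anterior pair 3 was 11.54, with the others at 11.79 to 11.82. The mean log2 level of Sod3 in tibialis anterior pair 2 was 9.16, with the others at 9.51 to 9.54.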

How the results depend on the processing

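The mean log2 ratios of the reductases moved by less than 1 SD in all 80 alternative values. These left out each pair in turn or changed the processing. Leaving out 1 pair cannot move a mean by 1 SD, whatever the values, so the count bears only on the changes of processing. The SD was also wide. With processed signals Msrb1 was 0.092 in gastrocnemius and 0.094 in tibialis anterior (TA), and in TA Msra was 0.079 and Msrb3 0.22. With 1 pair left out, Msrb2 ranged from 0.32 to 0.55 in gastrocnemius and from -0.38 to -0.21 in TA, Msra from 0.26 to 0.42 and 0.13 to 0.20, Msrb1 from 0.11 to 0.31 and 0.15 to 0.38, and Msrb3 from -0.23 to -0.11 and 0.10 to 0.22. The level difference between muscles (gastrocnemius minus TA), with 1 array left out, ranged from -0.74 to -0.58 for Msrb2 and -0.46 to -0.33 for Msra, both passing each time. It ranged from 0.05 to 0.18 for Msrb3, and from -0.14 to 0.0024 for Msrb1, whose sign turned without TA pair 3. With processed signals it was -0.85 for Msrb2, -0.57 for Msra, -0.25 for Msrb1 and 0.029 for Msrb3, where Msrb1 and Msrb3 did not pass. With the Eif6+/- channel alone, Msrb2 (-0.29, adjusted p = 0.191) and Msra (-0.30, adjusted p = 0.102) no longer passed, and Msrb3 was -0.034. With the WT channel alone, Msrb2 (-1.02, adjusted p = 0.00452) and Msra (-0.48, adjusted p = 0.0440) passed, and Msrb3 was 0.29. Over all alternatives adjusted p ranged from 0.00208 to 0.191 for Msrb2 and 0.00755 to 0.102 for Msra. A channel alone holds part of the ratios that chose the genes, and the cause was not tested. Reductase signals stood well above background in both channels on all arrays.

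The labels do not say whether pairs with the same number are the same mice in both muscles, and the data do not settle it: deviations of same-numbered arrays correlated at -0.27 to 0.24, other combinations at -0.27 to 0.32. With the pair number as a block, 4029 genes passed in place of 4077 (3697 in both), and Msrb2 and Msra still passed (adjusted p = 0.00254 and 0.0125).

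The gastrocnemius count of 1939 became 1204 with processed signals, 3212 with SAM, 626 at 0.05 and 0 with an ordinary test per probe (2584 at an unadjusted p under 0.05), and 0 to 1766 with 1 pair left out (0 without pair 3 or 4). Its 11 pathway genes became 5 at offset 0, 4 with processed signals, 21 with SAM, 2 at 0.05, 7 by the median over probes, 0 with the ordinary test (12 at an unadjusted p under 0.05) and 0 to 8 with 1 pair left out (6 without pair 2). The TA count of 2014 became 1215 at offset 0, 850 with processed signals, 837 at 0.05, 24 with the ordinary test and 68 to 2020 with 1 pair left out (68, 531 and 1185 without pairs 1, 2 and 3). Its 12 pathway genes became 7, 3, 4 and 0 under these settings (17 at an unadjusted p under 0.05 in the last) and 0 to 17 with 1 pair left out (0 without pair 1 or 2, 7 without pair 3). The level count of 4077 became 2578 with the WT and 2057 with the Eif6+/- channel alone, and its 34 pathway genes became 13 with the latter and 22 at 0.05. Processed signals gave 5293, with 23.9% of them higher in gastrocnemius in place of 39.3%, and moved the median of all genes to -0.12. By the median over its probes Prdx6 was -0.056 in gastrocnemius and -0.35 in TA. None of the named pathway genes kept its call under all alternatives in the ratios (0 of 11 and 0 of 12), and 8 of 20 did in the level. Why these counts and values moved was not tested. Eif6 also failed to pass with the ordinary test (adjusted p = 0.122 and 0.131; range over alternatives 0.00826 to 0.156 and 0.00374 to 0.131).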
